A study of Mus musculus with 13 samples.

Results

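Superoxide dismutases, catalase, glutathione peroxidases and the mitochondrial thioredoxin chain remove reactive oxygen species, and in cultured cells and in brain several of their genes are known to depend on the transcriptional coactivator PGC-1α. The list examined here holds 10 such genes, chosen by name: Sod1, Sod2, Cat, Gpx1, Gpx4, Prdx3, Prdx5, Txn2, Txnrd2 and Ucp2. Their level was read from mouse retina arrays through the probe sets annotated with exactly 1 of these symbols. Such probe sets were present for 8 of the 10 genes, among 19937 genes measured in the same way, and Prdx5 and Ucp2 were not analysed here.

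Each array (Mouse Gene 1.0 ST, Affymetrix) measured RNA from the pooled retinae of 1 mouse, and this type reads each transcript with probes along its length. KO light were C57 BL/6 mice with a global deletion of PGC-1α that had been exposed to white light of 15000 lux for 2 h. WT light were wild-type mice exposed in the same way, named C57 BL/6 NRj in the paper's methods and C57BL/6j in its legends. KO dark and WT dark were mice of the same genotypes without that exposure. Each group held 3 arrays that were compared, and WT dark held a 4th that stood outside the fit. The mice were 6 to 13 weeks old and had been dark adapted for 16 h, the pupils of exposed mice were dilated before the light, and a night of recovery in darkness followed it. Because the deletion is global, it was present in every cell of the body, and the WT mice were bought rather than bred as littermates. By the labels the light mice were male and the dark mice female, apart from WT dark 4, which was male. Light and sex can therefore not be told apart in the comparisons of light with dark.

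The retina is among the tissues with the highest oxygen use, and its photoreceptors carry densely packed mitochondria. Superoxide that leaves the respiratory chain is turned into hydrogen peroxide by SOD2 in the mitochondrial matrix and by SOD1 in the cytosol. In the matrix the peroxide is reduced by peroxiredoxin 3, encoded by Prdx3, which is recharged by thioredoxin 2 (Txn2), and that in turn by thioredoxin reductase 2 (Txnrd2). Catalase (Cat) clears peroxide in peroxisomes, glutathione peroxidase 1 (Gpx1) reduces peroxide with glutathione, and glutathione peroxidase 4 (Gpx4) reduces lipid peroxides within membranes.

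The promoters of 4 genes are shown because the results turn on them: Prdx3 and Sod2 had the largest differences between KO light and KO dark relative to their error, and Txn2 and Sod1 are the partners that act with or beside them and differed little. The stretches run from 250 bases before to 50 bases after the start site in RefSeq (GRCm38.p6), and capitals mark the motifs found by searching both strands, so that a GC box can also appear as CCGCCC.
Prdx3, chr19:60874489-60874788, minus strand: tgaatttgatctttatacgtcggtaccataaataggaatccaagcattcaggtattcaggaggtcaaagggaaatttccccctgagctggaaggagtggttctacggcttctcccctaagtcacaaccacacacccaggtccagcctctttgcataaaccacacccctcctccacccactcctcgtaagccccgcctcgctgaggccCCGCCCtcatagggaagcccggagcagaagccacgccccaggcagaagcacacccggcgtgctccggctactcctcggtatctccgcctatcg
Txn2, chr15:77928945-77929244, minus strand: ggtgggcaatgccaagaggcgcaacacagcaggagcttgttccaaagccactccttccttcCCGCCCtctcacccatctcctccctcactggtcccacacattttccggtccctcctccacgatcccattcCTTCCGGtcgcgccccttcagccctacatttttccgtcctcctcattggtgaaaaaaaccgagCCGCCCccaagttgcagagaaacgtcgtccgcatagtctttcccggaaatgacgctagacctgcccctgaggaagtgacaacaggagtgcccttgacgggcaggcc
Sod2, chr17:13007589-13007888, plus strand: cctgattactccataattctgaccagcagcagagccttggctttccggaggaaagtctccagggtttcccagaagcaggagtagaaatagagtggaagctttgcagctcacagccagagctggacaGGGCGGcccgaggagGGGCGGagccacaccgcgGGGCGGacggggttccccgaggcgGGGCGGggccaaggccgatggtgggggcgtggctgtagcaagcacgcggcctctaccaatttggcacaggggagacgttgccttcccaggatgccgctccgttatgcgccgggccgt
Sod1, chr16:90220512-90220811, plus strand: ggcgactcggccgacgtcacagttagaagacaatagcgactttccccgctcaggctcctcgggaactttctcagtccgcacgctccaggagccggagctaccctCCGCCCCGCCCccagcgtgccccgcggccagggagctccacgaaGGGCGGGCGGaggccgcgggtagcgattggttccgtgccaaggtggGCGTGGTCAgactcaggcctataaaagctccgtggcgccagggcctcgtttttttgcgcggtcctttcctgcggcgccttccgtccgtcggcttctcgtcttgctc
The capitals in Prdx3 and Sod2 are GC boxes (GGGCGG), the letters read by Sp1. In Sod1 they are GC boxes, partly overlapping one another, and 1 core of the antioxidant response element (TGACNNNGC), the letters read by Nrf2. In Txn2 they are GC boxes and 1 ETS core (CCGGAAG, here on the other strand as CTTCCGG), the letters read by GABP.

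RefSeq gave 13 promoters for the 10 genes, since Gpx4 has 4 start sites in the table. A GC box lay in 12 of the 13, against 35.7% of all 32851 promoters of this length. The antioxidant response element core lay in those of Sod1 and Ucp2, against 12.4% of all promoters. The ETS core lay in those of Txn2 and Prdx5, against 8.9%. None of the 13 held the core of the ERR response element (AAGGTCA, 4.7% of all promoters), through which PGC-1α often acts, the NRF1 core (CGCATGCG, 1.9%) or an AP-1 site (TGANTCA, 7.8%). These matches are descriptions of letters in a window and not of binding.

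A pair of arrays did not resemble their groups. KO light 3 correlated with the WT dark arrays at a mean r of 0.997 over all genes, and with KO light 1 and 2 at 0.992. WT dark 4 showed the reverse, with 0.989 to the other WT dark arrays and 0.997 to KO light 1 and 2. The level of Xist, the RNA of the inactive X chromosome, fitted the labelled sex on all 13 arrays, so it does not separate KO light 3 from WT dark 4, both labelled male. The differences of the 8 genes in KO light are therefore given with the arrays as labelled and with WT dark 4 in the place of KO light 3, called exchanged arrays below. Whether the labels were exchanged is not known.

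The gene whose product is deleted, Ppargc1a, measured 10.02, 10.25 and 9.96 in KO light and 9.96, 9.85 and 9.99 in WT light. It measured 10.40, 10.19 and 10.26 in KO dark, against 10.03, 10.01 and 10.02 in WT dark (log2 intensity). After light the difference was 0.14 ± 0.08 (SE, adjusted p = 0.468), and with exchanged arrays, where WT dark 4 measured 9.96, it was 0.14 ± 0.07 (adjusted p = 0.245). KO dark was above WT dark, with a difference of 0.26 ± 0.08 (SE, adjusted p = 0.298). The sources used here do not say which exons are deleted or where the probes lie, so the genotype labels were not checked by this probe set. Of 9 rod markers measured, the mean level was between 12.05 and 12.38 on the 12 arrays of the fit, and 12.01 on WT dark 4.

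With the arrays as labelled, none of the 8 genes was called in any comparison. A call needed an adjusted p under 0.05 in limma, with Benjamini-Hochberg adjustment over all 19937 genes, and a ratio no smaller than 1.2 or no larger than 0.87 (for the interaction the adjusted p alone). Few genes of any kind passed: 0.0752% in KO dark vs WT dark, 0.176% in KO light vs WT light, 0.100% in KO light vs KO dark, 0.431% in WT light vs WT dark and 0.0602% in the interaction of genotype and light. A count of 0 of 8 genes is thus near that of all genes. At an unadjusted p under 0.05 with the same ratios, Prdx3 was higher in both light comparisons, as were 2.95% of all genes in KO light vs KO dark and 2.30% in WT light vs WT dark. No other of the 8 genes passed in any comparison.

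**Figure D1:**
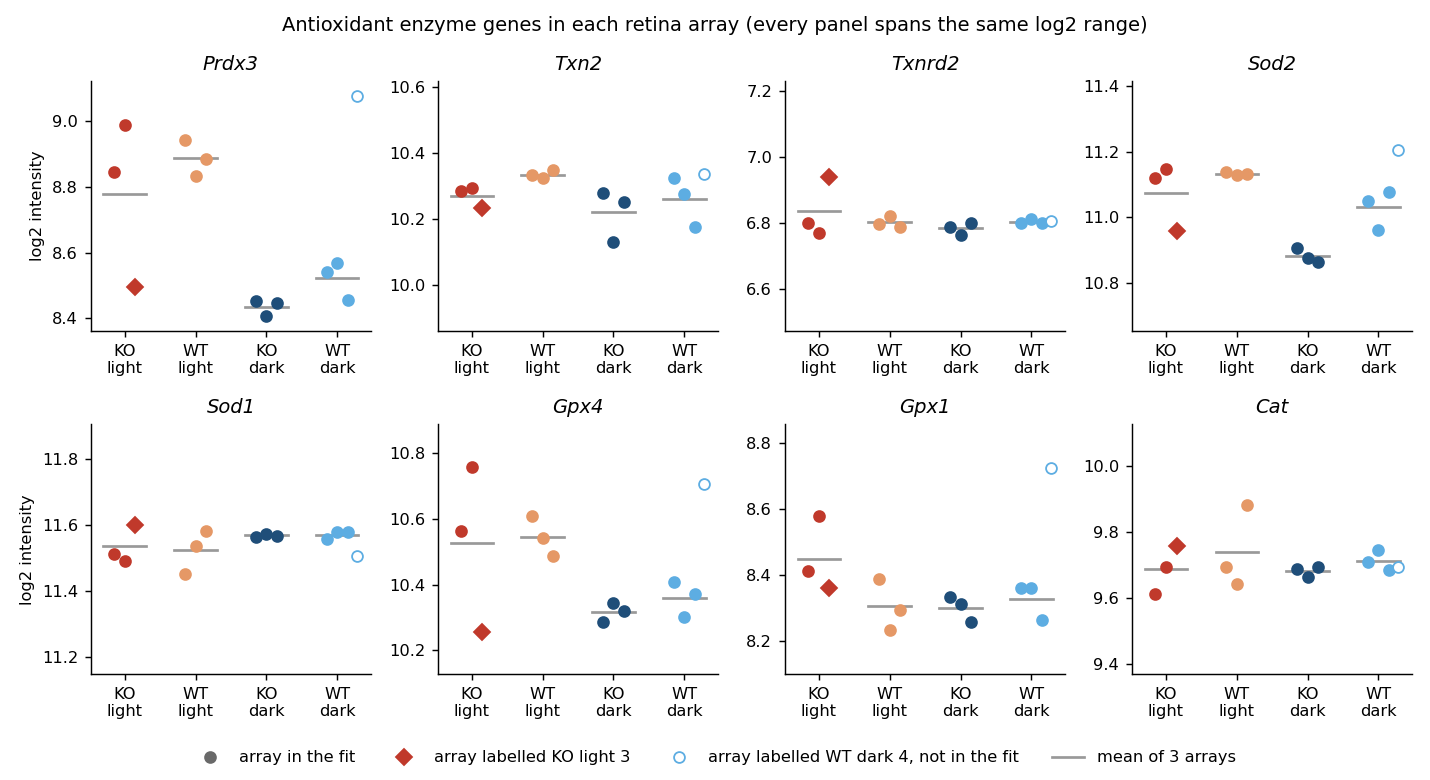
Level of the 8 measured genes on each array as log2 intensity (vertical axis, the same span in each panel) for KO light, WT light, KO dark and WT dark. Points are single arrays, grey lines the mean of 3, the diamond KO light 3, and the open circle WT dark 4. In the Prdx3 panel KO light 3 sits at 8.50 among the dark arrays, and WT dark 4 at 9.08 above all others.

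In the peroxide chain of the mitochondrial matrix, Prdx3 had the largest differences between light and dark of the 8 genes in both genotypes, and those of Txn2 and Txnrd2 were small. Prdx3 measured 8.85, 8.99 and 8.50 in KO light, against 8.45, 8.41 and 8.45 in KO dark. In WT light it measured 8.94, 8.83 and 8.88, against 8.54, 8.57 and 8.46 in WT dark. All 3 light arrays of either genotype were above all 3 dark arrays of that genotype, although KO light 3 exceeded the highest KO dark array by little and lay within the WT dark range. Of all genes, 6.44% were above without overlap in KO light vs KO dark and 17.5% in WT light vs WT dark. The mean difference was 0.34 ± 0.10 in KO mice (SE, adjusted p = 0.177, a ratio of 1.27) and 0.36 ± 0.10 in WT mice (adjusted p = 0.0942, a ratio of 1.29), neither past the threshold.

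With exchanged arrays, Prdx3 passed in both genotypes. KO light then measured 8.85, 8.99 and 9.08, and the difference from KO dark was 0.53 ± 0.06 (adjusted p = 5.38e-05, a ratio of 1.45). In WT mice the difference stayed at 0.36 with an SE of 0.06, since the spread shared by all groups became smaller (adjusted p = 0.00375). The same test called 7.01% of genes higher in KO light vs KO dark and 2.13% higher in WT light vs WT dark. Leaving out KO light 3 without a replacement also ended in calls, with 0.48 in KO mice (adjusted p = 0.000304, where 5.68% of genes were called higher) and an adjusted p of 0.00285 in WT mice (2.13%). When WT light and WT dark were fitted alone, Prdx3 passed too (adjusted p = 0.0129, where 1.76% of genes were called higher).

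No difference of Prdx3 between genotypes passed the test. KO light averaged 8.78 ± 0.25 and WT light 8.89 ± 0.06 (SD, n = 3 each), a difference of -0.11 with a 95% interval of -0.32 to 0.10, and with exchanged arrays it was 0.08 (-0.04 to 0.21). KO dark averaged 8.44 ± 0.03 and WT dark 8.52 ± 0.06, a difference of -0.09 (-0.29 to 0.12, adjusted p = 0.958). KO dark was nevertheless below WT dark without overlap, as were 7.45% of all genes. The interaction, the response to light in KO mice less the response in WT mice, was -0.02 (-0.32 to 0.27) as labelled and 0.17 (-0.01 to 0.35, adjusted p = 0.337) with exchanged arrays.

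Txn2, the partner that recharges peroxiredoxin 3, measured 10.28, 10.29 and 10.23 in KO light, against 10.28, 10.13 and 10.25 in KO dark. In WT light it measured 10.33, 10.32 and 10.35, against 10.33, 10.28 and 10.18 in WT dark. The groups overlapped between light and dark in either genotype, with differences of 0.05 (95% interval -0.07 to 0.17) in KO mice and 0.07 (-0.04 to 0.19) in WT mice. KO light lay below WT light without overlap, as did 8.45% of all genes, by 0.06 on average (adjusted p = 0.667), and the groups overlapped once the arrays were exchanged (difference -0.03). With exchanged arrays KO light was above KO dark by 0.08 (-0.03 to 0.20, adjusted p = 0.262), without overlap, as were 20.0% of all genes, and not called. Txnrd2 lay between 6.76 and 6.82 on every array of the fit except KO light 3, at 6.94. Its 4 differences lay between -0.02 and 0.05, and the interval for WT light minus WT dark was -0.11 to 0.11. With exchanged arrays its differences were 0.009 (95% interval -0.07 to 0.09) in KO light vs KO dark and -0.01 (-0.09 to 0.07) in KO light vs WT light.

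**Figure D2:**
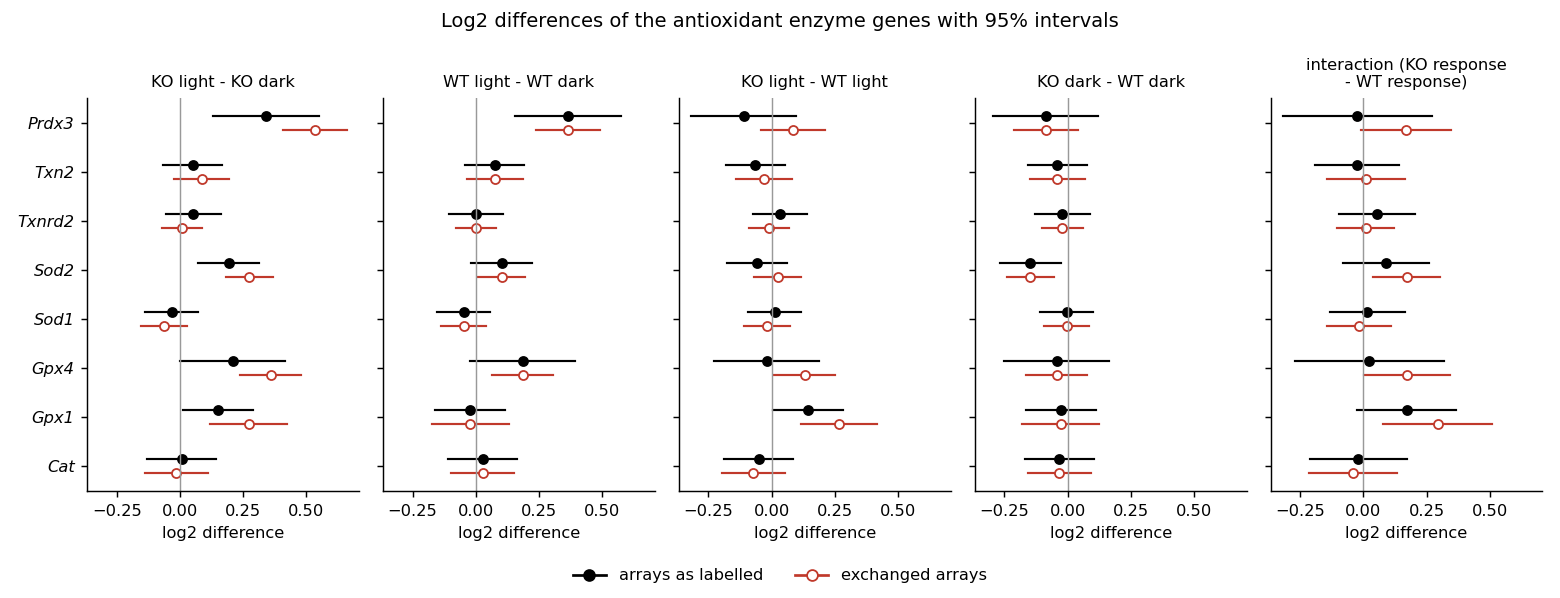
Log2 difference of each gene (horizontal axis) with its 95% interval, in 5 comparisons, with the arrays as labelled (filled) and with WT dark 4 in the place of KO light 3 (open). Prdx3 differs between light and dark by 0.34 in KO and 0.36 in WT mice as labelled, and the intervals of Txnrd2, Sod1 and Cat include 0 in every panel.

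Sod2, the superoxide dismutase of the matrix, carried the one difference between genotypes in the dark whose interval left out 0. It measured 10.91, 10.88 and 10.86 in KO dark, against 11.05, 10.96 and 11.08 in WT dark. All 3 KO arrays were below all 3 WT arrays, as were 7.45% of all genes. The difference was -0.15 (95% interval -0.27 to -0.03), a ratio of 0.903, and it did not pass the adjustment over all genes (unadjusted p = 0.0199, adjusted p = 0.538). The adjusted p was 0.173 with exchanged arrays, which change only the spread in this comparison.

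After light, Sod2 stood close to one level in both genotypes except on KO light 3. It measured 11.12, 11.15 and 10.96 in KO light, against 11.14, 11.13 and 11.13 in WT light. The difference was -0.06 (95% interval -0.18 to 0.06), and 0.02 (-0.07 to 0.12) with exchanged arrays. KO light was above KO dark by 0.19 ± 0.06 (SE, adjusted p = 0.183) and WT light above WT dark by 0.10 ± 0.06 (adjusted p = 0.369), without overlap in either genotype. The same held for 6.44% of all genes in KO mice and 17.5% in WT mice. With exchanged arrays the KO difference was 0.27 ± 0.04 and was called (adjusted p = 0.000722). The interaction was 0.09 (-0.08 to 0.26) as labelled and 0.17 (0.04 to 0.30, adjusted p = 0.171) with exchanged arrays.

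Sod1, the cytosolic enzyme, was nearly constant. The dark arrays measured 11.56, 11.57 and 11.57 in KO mice and 11.56, 11.58 and 11.58 in WT mice, and the difference of -0.003 had a 95% interval of -0.11 to 0.10. The light arrays spread more widely, with 11.51, 11.49 and 11.60 in KO light and 11.45, 11.54 and 11.58 in WT light. Light minus dark was -0.03 (-0.14 to 0.07) in KO mice and -0.05 (-0.15 to 0.06) in WT mice, and KO light minus WT light was 0.01 (-0.09 to 0.12), or -0.02 (-0.11 to 0.07) with exchanged arrays. With exchanged arrays KO light, at 11.51, 11.49 and 11.51, was below KO dark without overlap, as were 18.0% of all genes, with a difference of -0.06 (-0.15 to 0.03), and the gene was not called.

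Gpx4, which guards membranes against lipid peroxidation, resembled Prdx3. It was read by a pair of probe sets, averaged here, and measured 10.56, 10.76 and 10.26 in KO light, against 10.29, 10.34 and 10.32 in KO dark. KO light 3 was lower than every KO dark array, while the other KO light arrays were higher than all of them. In WT light it measured 10.61, 10.54 and 10.49, above the 10.41, 10.30 and 10.37 of WT dark without overlap, as were 17.5% of all genes. The differences were 0.21 ± 0.10 in KO mice (SE, adjusted p = 0.359) and 0.19 ± 0.10 in WT mice (adjusted p = 0.349).

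With exchanged arrays Gpx4 was called in KO mice, at 0.36 ± 0.06 (adjusted p = 0.000648). It was not called in WT mice (adjusted p = 0.0615). Both probe sets showed the same order of arrays in outline, although not the same size: the means of KO light and KO dark were 10.68 and 10.41 in one and 10.38 and 10.22 in the other. KO light minus WT light was -0.02 (95% interval -0.23 to 0.19) as labelled and 0.13 (0.01 to 0.25, adjusted p = 0.155) with exchanged arrays, and neither was called.

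Gpx1 had the largest difference of the 8 genes between KO light and WT light. It measured 8.41, 8.58 and 8.36 in KO light, against 8.39, 8.23 and 8.29 in WT light. The groups overlapped, and the difference of 0.14 ± 0.06 (SE) did not pass (unadjusted p = 0.0421, adjusted p = 0.368). In the dark it measured 8.33, 8.31 and 8.25 in KO mice, against 8.36, 8.36 and 8.26 in WT mice.

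In KO mice the light arrays of Gpx1 were above the dark arrays without overlap, as were 6.44% of all genes. The mean difference was 0.15 ± 0.06 (adjusted p = 0.321), and in WT mice it was -0.02 (95% interval -0.16 to 0.12). With exchanged arrays KO light, at 8.41, 8.58 and 8.72, was called against WT light (0.27 ± 0.07, adjusted p = 0.026, where 4.56% of genes were called higher) and against KO dark (0.27 ± 0.07, adjusted p = 0.0149). Its interaction did not pass as labelled (0.17, adjusted p = 0.766) or with exchanged arrays (0.29, adjusted p = 0.15). Both calls of Gpx1 lay close to the ratio of 1.2 that was needed, at 1.203 against WT light and 1.207 against KO dark. They therefore turned on WT dark 4, in which Gpx1 was highest of all 13 arrays.

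Cat, the peroxisomal enzyme, measured 9.61, 9.70 and 9.76 in KO light, against 9.69, 9.66 and 9.69 in KO dark. In WT light it measured 9.69, 9.64 and 9.88, against 9.71, 9.75 and 9.68 in WT dark. Every pair of groups overlapped, with exchanged arrays too. The differences lay between -0.05 and 0.03, and that of KO light minus KO dark had an interval of -0.13 to 0.14. With exchanged arrays they were -0.01 (-0.14 to 0.11) in KO light vs KO dark and -0.07 (-0.20 to 0.05) in KO light vs WT light.

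As a group, the 8 genes had lower means in KO dark than WT dark, and their median difference was -0.036 against 0.003 over all genes, of which 48.4% were lower. In that comparison each difference but that of Sod2 had an interval that included 0. In KO light vs WT light 3 were higher and 5 lower (median -0.036, against -0.015 over all genes). In KO light vs KO dark 7 were higher and 1 lower (median 0.101, against -0.003), and in WT light vs WT dark 5 were higher and 3 lower (median 0.051, against 0.016). With exchanged arrays the medians were 0.178 in KO light vs KO dark, against -0.014 over all genes, and 0.007 in KO light vs WT light, against -0.023. As labelled, Sod2, Gpx1 and Prdx3 were higher in KO light than KO dark without overlap, where 6.44% of all genes were, and with exchanged arrays Gpx4 and Txn2 joined them, where 20.0% were.

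**Figure D3:**
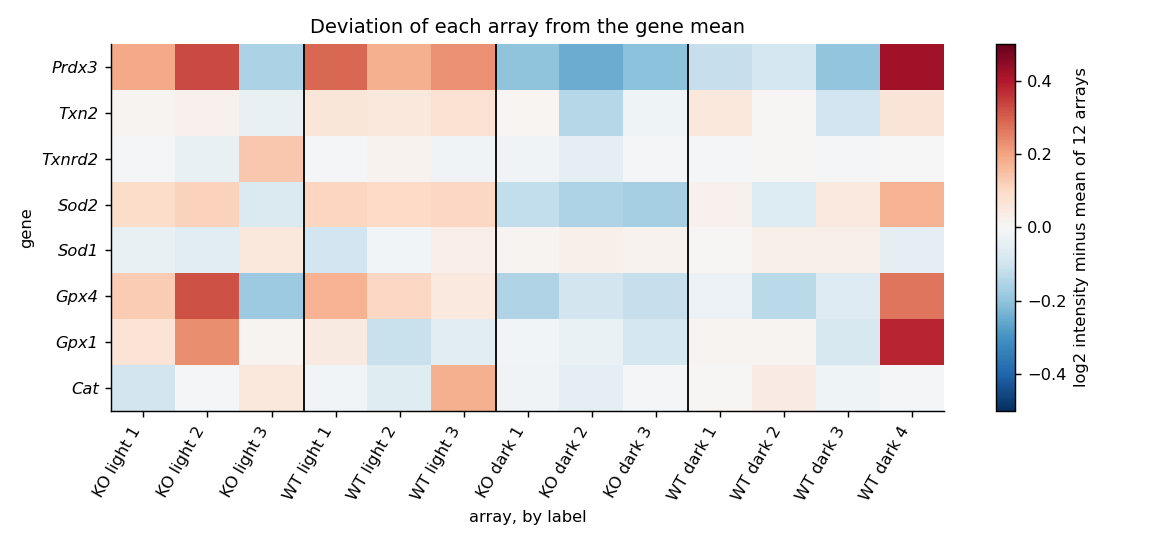
Each gene's log2 intensity on each array minus its mean over the 12 arrays of the fit (colour, red above and blue below), with arrays in columns by their label and black lines between groups. Prdx3, Sod2 and Gpx4 are above their mean on KO light 1 and 2, on the 3 WT light arrays and on WT dark 4, and below it on KO light 3 and the 3 KO dark arrays.

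Prdx3, Sod2 and Gpx4 moved with one another over the arrays. Over the 12 arrays of the fit Pearson's r was 0.91 between Prdx3 and Gpx4, 0.86 between Prdx3 and Sod2, and 0.82 between Gpx4 and Sod2. Sod1 ran the other way, with r of -0.83 to Gpx4 and -0.74 to Prdx3. These values describe arrays that share the contrast of light and dark. Among all other genes the one most like Prdx3 was Park7, the gene of the oxidative stress protein DJ-1 (r = 0.980).

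For the other genes the most alike were Rny3 for Gpx4 (r = 0.975), Spef1l for Sod1 (0.962), Dusp19 for Txn2 (0.956), Wdr7 for Sod2 (0.949), Csf2rb for Txnrd2 (0.935), Tshr for Gpx1 (0.929) and Il1bos for Cat (0.895). Each was picked as the highest r among 19937 genes over 12 arrays.

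Reactive glia and retinal stress genes, such as Gfap, moved with the same arrays. The mean level of the 10 measured of 11 listed was 9.90, 9.59 and 8.11 in KO light and 8.12, 8.47 and 8.87 in WT light. It ranged over 7.83 to 7.92 in KO dark and over 7.72 to 8.04 in WT dark, and was 10.08 on WT dark 4. Over 13 arrays its r was 0.81 with Prdx3, 0.80 with Gpx4, 0.74 with Gpx1, 0.71 with Sod2 and -0.51 with Sod1. It was weaker with the remaining genes, at 0.41 with Txn2, -0.11 with Cat and -0.12 with Txnrd2.

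The 3 WT light arrays differed in this glial level while Prdx3 stayed between 8.83 and 8.94 and Sod2 between 11.13 and 11.14. WT light 1, with a glial level near that of the dark arrays, had the highest Prdx3 of its group. Rod markers averaged 12.05 to 12.24 in KO light arrays, 12.31 to 12.38 in WT light arrays, 12.28 to 12.31 in KO dark and 12.29 to 12.35 in WT dark. The mean of 8 cone markers was 9.62, 9.94 and 10.15 in KO light, and WT light ranged over 10.01 to 10.13. It was 10.17 to 10.22 in KO dark, 10.20 to 10.24 in WT dark and 9.65 on WT dark 4. None of the 8 cone or 9 rod markers was called as labelled. With exchanged arrays 6 cone and 3 rod markers were called lower in KO light vs KO dark, where 6.30% of all genes were. In KO light vs WT light 4 cone and 5 rod markers were called lower with exchanged arrays, where 3.66% of all genes were. All 8 markers of the retinal pigment epithelium had lower means in WT light than WT dark (median -0.359, 1 called), with 6 of 8 lower in KO light vs KO dark (median -0.156). With exchanged arrays 4 were lower and 4 higher in KO light vs KO dark (median 0.01). The part of cell composition and glial state in these differences was not tested, and in whole retina fewer cells of a type cannot be told apart from less RNA per cell.

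**Figure D4:**
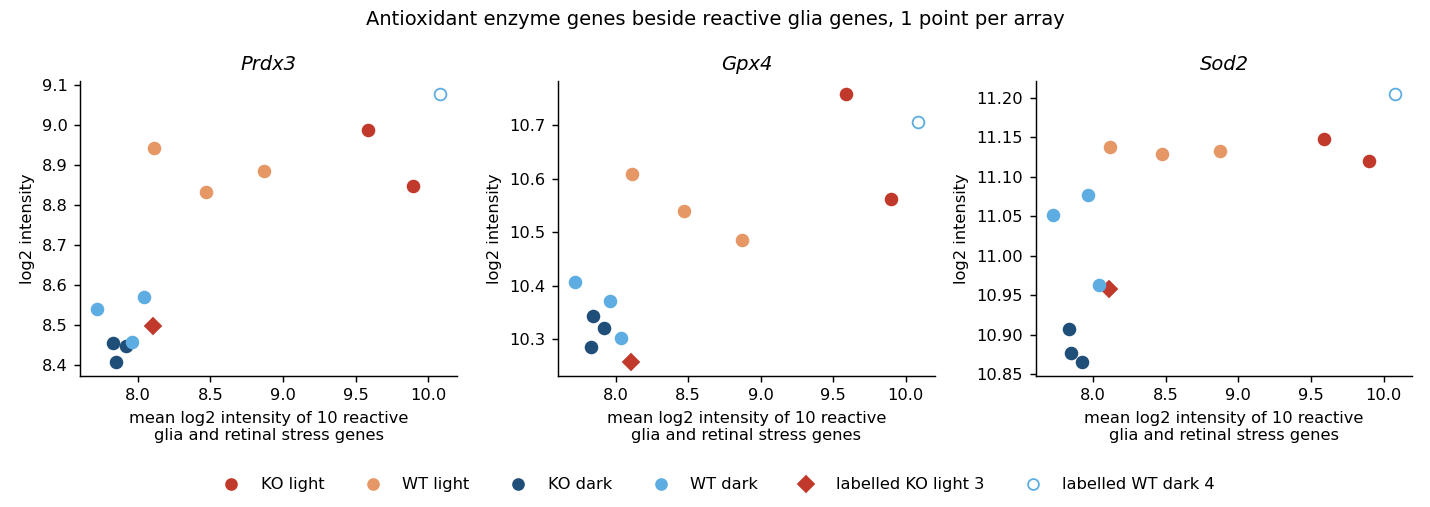
Log2 intensity of Prdx3, Gpx4 and Sod2 (vertical axes, each with its own span) against the mean log2 intensity of 10 reactive glia and retinal stress genes (horizontal axis), 1 point per array. The WT light arrays hold Prdx3 between 8.83 and 8.94 over a glial range of 8.12 to 8.87. KO light 3, at a glial level of 8.11, lies just above the glial range of the dark arrays of the fit. Its Prdx3 (8.50) and Sod2 (10.96) lie within the range of those dark arrays, and its Gpx4 (10.26) lies below it.

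Within the arrays labelled male, which include all light arrays and WT dark 4, Prdx3 was 8.50 on KO light 3 and 8.83 to 9.08 on the other 6. On the 6 arrays labelled female, all dark, it was 8.41 to 8.57. For Sod2 the values were 10.96 on KO light 3, 11.12 to 11.20 on the other male arrays and 10.86 to 11.08 on the female arrays, and for Gpx4 they were 10.26, 10.49 to 10.76 and 10.29 to 10.41. Only 1 male array was labelled dark, so no comparison of light within males was made.

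The wider antioxidant system was read from 7 lists of related genes, with 63 of 65 measured. It gave no call in the 5 comparisons as labelled, near the share of all genes, of which 0.0602% to 0.431% were called. The lists were the other superoxide dismutases and glutathione peroxidases, the other peroxiredoxins and their repair, the cytosolic and further thioredoxin and glutaredoxin genes, mitochondrial NADPH supply, the other uncoupling proteins, the upstream regulators, and the Nrf2 targets with the metallothioneins. For the 7 measured genes of the other peroxiredoxins and their repair, a list that includes sulfiredoxin and sestrins, the median difference was 0.17 in KO light vs KO dark (0.26 with exchanged arrays) and 0.19 in WT light vs WT dark. As labelled 6 of the 7 means were higher in either comparison, as were 48.4% of all genes in KO mice and 56.1% in WT mice. For the 13 thioredoxin and glutaredoxin genes it was 0.025 (0.072 with exchanged arrays) and 0.029. No gene of these lists was called as labelled.

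Mitochondrial NADPH, which thioredoxin reductase 2 spends, is made among others by the transhydrogenase NNT and by isocitrate dehydrogenase 2. Nnt differed by 0.0009 between KO dark and WT dark (SE 0.0647) and by -0.0034 between KO light and WT light (-0.0019 with exchanged arrays). Idh2 measured 9.20, 9.06 and 8.83 in KO light, against 8.81, 8.92 and 8.80 in WT light. The difference was 0.19 ± 0.08 (SE, adjusted p = 0.344). With exchanged arrays that difference was 0.33 ± 0.06 and was called (adjusted p = 0.00229).

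With exchanged arrays 13 of the 63 genes were called higher and 2 lower in KO light vs KO dark, where 7.01% of all genes were higher and 6.30% lower. In KO light vs WT light 11 were higher and 2 lower, against 4.56% and 3.66% of all genes. In WT light vs WT dark 2 were lower (2.29% of all genes) and none higher, and in the interaction 3 were higher (2.00%) and none lower. Chosen after their values were seen, the peroxiredoxins Prdx1 (0.40, adjusted p = 0.00255) and Prdx2 (0.44, adjusted p = 0.000328) were among those higher in KO light vs KO dark. As labelled they differed by 0.16 (adjusted p = 0.66) and 0.27 (adjusted p = 0.278). Msrb1, a methionine sulfoxide reductase, was lower with exchanged arrays (-0.30, adjusted p = 0.000582) and differed by -0.24 as labelled (adjusted p = 0.130). With exchanged arrays Msrb1 was called lower in WT light vs WT dark too (-0.26, adjusted p = 0.00611). The other gene called lower in KO light vs KO dark was Ppargc1b, the gene of the related coactivator PGC-1β (-0.48, adjusted p = 0.000494). With exchanged arrays it was also called lower in KO light vs WT light (-0.35, adjusted p = 0.00727), and it was not called as labelled. In KO light vs KO dark the metallothionein genes Mt1 and Mt2 were higher with exchanged arrays, by 1.04 and 0.92. As labelled their differences were 0.54 (adjusted p = 0.300) and 0.46 (adjusted p = 0.415).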

How the data were processed

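Values were deposited by the authors as probe set intensity on a linear scale, already brought to a common level between arrays (array medians 141.1 to 145.6). The paper's methods name Partek and Bioconductor, the submitters' processing notes name Partek, and neither states a version, the summarization, the normalization, the genome build or filters. The labels name Trizol and mixed sexes, whereas the methods name another kit and male mice.

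Intensities were taken to log2. Of 34760 probe sets, 21640 carried 1 symbol in the table of probe genes and were averaged per gene, which gave 19937 genes. For 12 arrays, a linear model of the 4 groups was computed in R 4.3.3 by limma 3.58.1 (8 residual degrees of freedom). WT dark 4 was left out, since the paper's legends give 3 samples per group. P-values are two-sided. The fit was tested on simulated data. Alternatives covered exchanged arrays, the arrays and groups in the fit, a replicate block, variance moderation, normalization, a filter on dim genes and single probe sets. All 10 members, Ppargc1a, Nnt, Idh2, pathway genes called as labelled and the gene most correlated with each member were named. The members and lists were chosen with earlier results of these data known. Biological replicates are those of the labels, and 3 arrays per group limit the precision. Probe sets were not filtered on background.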

Additional observations from a re-analysis of the deposited data

Results flagged for a closer look

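WT dark 4 was outside the fit, and in 3 of the 8 genes it was above all 6 other dark arrays and exceeded the mean of WT dark 1 to 3 by a ratio of at least 1.2, as it did in 10.7% of all genes. Prdx3 was higher on it by 0.55, Gpx1 by 0.40 and Gpx4 by 0.35 (log2). For Prdx3 and Gpx4 the level lay within 0.16 of the mean of KO light 1 and 2, and Gpx1 exceeded that mean by 0.23. The array is labelled as a male mouse and the other WT dark arrays as female, and the part of sex, light or labelling in these values was not tested.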

How the results depend on the processing

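With the arrays as labelled 0 of the 8 genes were called in each of the 5 comparisons, and 22 alternatives were run. Exchanged arrays gave 4 calls in KO light vs KO dark, 1 in KO light vs WT light and 1 in WT light vs WT dark. All were higher, and of all genes 7.01%, 4.56% and 2.13% were called higher in these comparisons. Leaving out 1 array at a time gave 0 to 2 calls in KO light vs KO dark and 0 to 1 in WT light vs WT dark. The calls came from leaving out KO light 3 alone, with 2 and 1, where 5.68% and 2.13% of all genes were called higher. The fit of WT light and WT dark alone gave 1 call, where 1.76% of all genes were called higher. No other alternative called any of the 8 genes. Of 867 single values under the alternatives 45 had the other sign than as labelled, all of them where the interval as labelled included 0 and neither value was called.

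Over all genes, exchanged arrays raised the calls to 2653 in KO light vs KO dark, against 20 as labelled, to 1640 against 35 in KO light vs WT light, to 880 against 86 in WT light vs WT dark, to 175 against 15 in KO dark vs WT dark and to 555 against 12 in the interaction. With the replicate block 17 genes were called in WT light vs WT dark, against 86 without it, and there was no call among the 8 genes in any comparison. Same-numbered arrays of different groups correlated in their deviations at -0.19 to 0.22, above 0.1 in 2 of 18 pairs, so the numbers were not taken to pair the mice. Signal over background was not used here, and Txnrd2, with the lowest log2 intensity of the 8, was dropped when genes below the median level were left out.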

Other observations

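Extracellular antioxidant enzymes are outside the list of 8. Gpx3, the secreted glutathione peroxidase, measured 10.82, 11.36 and 10.83 in KO light, against 10.36, 10.30 and 10.26 in WT light, without overlap, as were 5.63% of all genes (difference 0.69 ± 0.13 (SE), adjusted p = 0.064 in limma). It measured 11.11, 10.92 and 11.14 in KO dark and 10.71, 10.91 and 10.53 in WT dark, again without overlap, as were 9.26% of all genes (0.34, adjusted p = 0.57). With exchanged arrays the difference after light was 0.73 and passed (adjusted p = 0.00233). Sod3, the extracellular superoxide dismutase, was higher in KO light than in WT light by 0.39 (adjusted p = 0.164), and by 0.36 with exchanged arrays (adjusted p = 0.0418). Its KO light minus KO dark difference was 0.03 as labelled and -0.002 with exchanged arrays. WT light minus WT dark was -0.41 (adjusted p = 0.0923, and 0.0342 with exchanged arrays).

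Both genes were noticed after their values were seen. Tyrp1, a pigment cell gene, stood at 8.16, 10.30 and 8.87 in KO light and 7.40, 6.96 and 7.50 in WT light, and at 8.68, 8.94 and 8.68 in KO dark and 8.10, 8.39 and 8.38 in WT dark. It was thus higher in KO than in WT arrays in the same comparisons as Gpx3, and highest on KO light 2 as Gpx3 was. The other pigment epithelium markers did not all do so. Of the 8 measured, 5 were higher and 3 lower in KO light vs WT light (median 0.177), or 6 and 2 with exchanged arrays (median 0.322). In KO dark vs WT dark 3 were higher and 5 lower (median -0.021). Rpe65 differed by -0.41 in KO light vs WT light (adjusted p = 0.804 in limma). The part of pigment cells in the Gpx3 differences was not tested.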
